A study of Mus musculus with 9 samples.

Results

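The nuclear-encoded genes of oxidative phosphorylation were taken by symbol, as the genes of the NADH dehydrogenase (Nduf), succinate dehydrogenase (Sdh), ubiquinol-cytochrome c reductase (Uqcr), cytochrome c oxidase (Cox) and ATP synthase (Atp5) families. The symbol patterns used did not take in Ndufab1 or the Ndufaf assembly factors. Of 45706 genes in the table, 88 matched the patterns, and 81 of these were kept. The kept genes reached at least 1 TPM, a transcript abundance corrected for transcript length, in at least 3 of 9 libraries. Of the other genes, 4 had names ending in -ps, and Cox8b, Cox8c and Cox7b2 did not reach the minimum. Cox8b had at most 0.722 TPM in any library, and Cox8c and Cox7b2 were listed at 0 in all 9. By current classification 35 of the 81 genes belong to complex I, 4 to complex II, 8 to complex III, 17 to complex IV and 15 to complex V. Atp5s and Atp5sl carry the Atp5 symbol but encode no subunit of ATP synthase, and they stand in no complex here. All 81 genes are annotated as protein coding in GENCODE M21, on 19 chromosomes.

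RNA sequencing was done on lungs of female BALB/c mice, 4 to 6 weeks old, that carried a flank tumour of 4T1, a mammary carcinoma line of the mouse that spreads to the lung. Mice were given nanocapsules of an antibody against the T cell receptor PD1, the free anti-PD1 antibody, or phosphate-buffered saline (PBS). Treatment fell on days 7 and 14 after engraftment, the lungs were taken on day 21, and each group had 3 lungs. All groups carried the tumour, no lung without a tumour is among them, and a dose of 150 µg per mouse is labelled in a way that need not cover the free antibody. Since no label ties a lung to an animal, p-values cover only the spread among these lungs, which may be technical.

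Oxidative phosphorylation makes most of the ATP of a resting cell. Complexes I and II pass electrons from NADH and succinate to ubiquinone, complex III passes them to cytochrome c, and complex IV passes them to oxygen. Complexes I, III and IV pump protons across the inner mitochondrial membrane, and complex V, the ATP synthase, uses the proton gradient. Complexes I, III, IV and V are built from nuclear and mitochondrial genes together, whereas complex II is wholly nuclear-encoded. Mature neutrophils rely mainly on glycolysis and hold few mitochondria, while endothelial, epithelial and muscle cells of the lung hold more.

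TPM keep no sequencing depth, so the depth behind each value is unknown. Each library had between 12194 and 13407 genes at 1 TPM or more. The neutrophil genes S100a8 and S100a9 together took 15.5% to 17.5% of all TPM in nanocapsule lungs, 10.3% to 12.0% in anti-PD1 lungs and 12.1% to 16.7% in PBS lungs. PBS 2 stood apart from the other PBS lungs with the highest of these PBS values. Over the 13248 genes that passed the minimum and were tested, the median log2 difference was -0.17 for nanocapsule against anti-PD1, 0.04 for anti-PD1 against PBS and -0.11 for nanocapsule against PBS. Median-of-ratios scaling, which divides each library by the median ratio of its genes to their mean over all libraries, brought these to 0.00, -0.02 and 0.00. Differences of the oxidative phosphorylation genes are therefore given beside the difference of all genes.

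The 81 genes together made up 1.26% ± 0.0488 of all TPM in nanocapsule lungs, 1.43% ± 0.0408 in anti-PD1 lungs and 1.25% ± 0.107 in PBS lungs (SD, n = 3 each). By mean over the 9 libraries, 45 genes stood at 100 TPM or more and 5 at 500 or more. These 5 were Cox6a1 at 689 TPM, Atp5b at 679, Atp5e at 651, Cox8a at 635 and Cox4i1 at 589. Cox6a1, Cox8a and Cox4i1 encode subunits of complex IV, Atp5b the catalytic beta subunit of ATP synthase and Atp5e its epsilon subunit. The order of the first 4 did not hold in each library, since their ranges overlapped. In 72 genes the coefficient of variation over the 9 libraries was under 20%, with a median over all 81 of 11.6%. The 9 genes at or over 20% were Cox4i2, Ndufa4l2, Cox6a2, Cox7a1, Cox6b2, Ndufa5, Ndufc1, Ndufs3 and Atp5s.

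**Figure D1:**
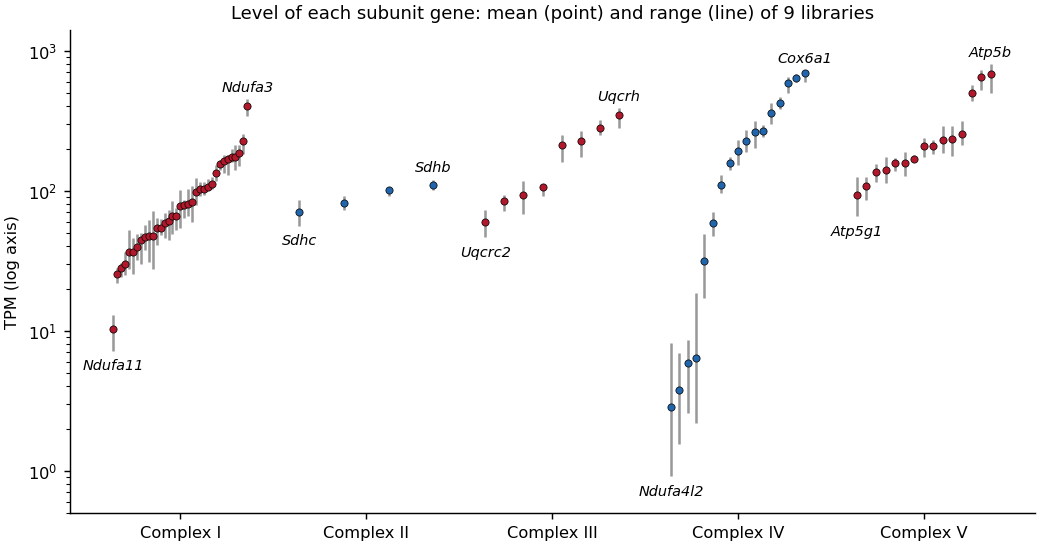
Mean TPM (points, log axis) and range over the 9 libraries (lines) of each subunit gene, ordered by mean within its complex, with the lowest and the highest gene of each complex named. Complex II spans 70.4 to 110 TPM, while complex IV spans 2.87 to 689 TPM because it includes genes of tissue-type subunits.

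Subunits of one complex are assembled in fixed ratios, but their transcripts were not at one level. The mean levels differed least in complex II, from 70.4 TPM for Sdhc to 110 TPM for Sdhb, a ratio of 1.57. In complex III they went from 59.9 TPM for Uqcrc2, a core protein, to 345 TPM for Uqcrh, the hinge protein that binds cytochrome c1. Complex I had the lowest median level of a gene, 77.7 TPM, with 10.3 TPM for the accessory subunit gene Ndufa11 and 400.4 TPM for the accessory subunit gene Ndufa3. Its 7 core genes, which encode the subunits that bind NADH, flavin, iron-sulphur clusters and ubiquinone, had a median of 47.6 TPM, against 81.5 TPM for the 28 accessory genes. Among the core genes Ndufv1, which binds flavin and NADH, stood at 46.7 TPM and Ndufs1, the largest iron-sulphur subunit, at 27.9 TPM. Median levels were 193 TPM in complex IV and 207 TPM in complex V.

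Some levels are uncertain because another gene shares the sequence. Transcripts of 21 of the 81 genes matched another gene at 95% identity or more over at least 150 bases, and for 2 of them those genes summed to 10% or more of the level. Gm3244, the copy of Ndufb4, had 57.8 TPM on average against 36.5 TPM for Ndufb4 itself, and Gm15920 had 12.2 TPM against 66.2 TPM for Ndufa12. Exons of 26 genes overlap a gene on the opposite strand and those of 5 a gene on the same strand. Whether strand was used in the quantification is not given in the sources used here. The levels of Ndufs1, opposite Eef1b2 at 436 TPM, and Ndufa4l2, opposite Shmt2 at 15.6 TPM, may therefore include reads of the partner. The same holds for Ndufs6, opposite Mrpl36 at 42.3 TPM, and Ndufa11, opposite Vmac at 4.34 TPM.

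Promoters of these genes are shown as a description of their sequence. RefSeq promoters of GRCm38.p6, from 250 bases before to 50 bases after the annotated start, were matched by symbol for 64 of the 81 genes, in 69 sequences. Motifs known from promoters of mitochondrial genes were searched on both strands. They were the NRF1 motif GCGCANGCG, the ETS motif CCGGAAG bound by GABP, and the YY1 motif AAGATGGCG. The NRF1 motif was in 30.4% of the 69 promoters, against 12.9% of the promoters of all tested genes and 6.25% of all 32851 promoters. For the ETS motif these shares were 23.2%, 17.2% and 8.86%, and for the YY1 motif 10.1%, 2.95% and 1.403%. At least one of these motifs was in 52.2% of the promoters, against 29.1% for tested genes and 14.8% for all. In the 35 genes with a motif the median log2 difference was -0.15 for nanocapsule against anti-PD1 and 0.22 for anti-PD1 against PBS, and in the 29 genes with a promoter but no motif it was -0.21 and 0.23. For nanocapsule against PBS the medians were 0.05 with a motif and -0.04 without. Whether the 35 and the 29 genes differ was not tested. A match describes these letters only and is no evidence of binding.

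The promoters below run 5′ to 3′ on the strand of the gene, with motif letters in capitals. Sdha (chr13:74350191-74350490, minus strand) holds the NRF1 motif 3 times, starting 98, 55 and 10 bases before the annotated start. Atp5g2 (chr15:102670998-102671297, minus strand) holds a pair of overlapping NRF1 matches, 1 on each strand, that start 42 and 41 bases before it. In Ndufb7 (chr8:83566508-83566807, plus strand) the ETS motif starts 20 bases before it, and Cox7a1 (chr7:30183921-30184220, plus strand), a gene of a muscle-type subunit, holds none of the motifs.
Sdha: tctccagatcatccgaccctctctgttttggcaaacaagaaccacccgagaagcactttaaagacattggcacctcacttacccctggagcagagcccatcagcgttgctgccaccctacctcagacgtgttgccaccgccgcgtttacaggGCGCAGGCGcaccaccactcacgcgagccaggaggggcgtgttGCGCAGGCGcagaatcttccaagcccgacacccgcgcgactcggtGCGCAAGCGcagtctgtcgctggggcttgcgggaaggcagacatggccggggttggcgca
Atp5g2: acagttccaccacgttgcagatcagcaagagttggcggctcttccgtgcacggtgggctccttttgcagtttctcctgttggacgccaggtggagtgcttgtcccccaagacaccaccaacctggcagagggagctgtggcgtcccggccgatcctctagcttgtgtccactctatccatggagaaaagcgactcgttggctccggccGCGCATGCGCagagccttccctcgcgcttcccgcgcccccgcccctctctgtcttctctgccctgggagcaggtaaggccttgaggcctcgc
Ndufb7: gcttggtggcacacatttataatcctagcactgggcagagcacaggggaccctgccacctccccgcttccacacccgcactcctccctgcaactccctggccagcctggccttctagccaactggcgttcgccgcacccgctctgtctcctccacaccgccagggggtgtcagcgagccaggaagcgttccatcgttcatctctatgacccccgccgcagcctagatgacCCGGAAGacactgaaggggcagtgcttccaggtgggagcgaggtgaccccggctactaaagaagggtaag
Cox7a1: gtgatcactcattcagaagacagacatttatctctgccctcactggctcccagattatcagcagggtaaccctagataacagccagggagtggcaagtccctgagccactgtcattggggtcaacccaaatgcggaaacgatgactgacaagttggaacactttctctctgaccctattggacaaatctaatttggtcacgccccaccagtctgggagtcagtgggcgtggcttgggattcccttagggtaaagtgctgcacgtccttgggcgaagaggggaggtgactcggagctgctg
CG pairs, which are dense in promoters of broadly expressed genes, numbered 25 in the Sdha window, 20 in that of Atp5g2 and 15 in that of Ndufb7, against 7 in that of Cox7a1.

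Nanocapsule lungs were first set against anti-PD1 lungs, the comparison of the antibody in its 2 forms. The nuclear-encoded genes were lower by value in nanocapsule lungs in 74 of 81 cases, but by about as much as all genes, and under median-of-ratios scaling only 39 of 81 were lower. Their median log2 difference was -0.18, a ratio of 0.88, beside -0.17 for all genes tested. By summed TPM, complex I had 3442, 3327 and 3030 in nanocapsule lungs, against 3576, 3709 and 3755 in anti-PD1 lungs. Complex V had 3700, 3666 and 3602 in nanocapsule lungs, against 4226, 4260 and 4471 in anti-PD1 lungs. In both complexes every nanocapsule lung lay below every anti-PD1 lung by TPM as deposited. The sums were not rescaled. The factors by which median-of-ratios scaling divides a library were 0.861 to 1.002 in nanocapsule and 0.984 to 1.129 in anti-PD1 lungs. The separation may therefore not hold under that scaling. The smallest gap was in complex II, with 355.9, 357.5 and 366.2 in nanocapsule lungs, against 377.0, 354.6 and 388.2 in anti-PD1 lungs, and there the groups overlapped.

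**Figure D2:**
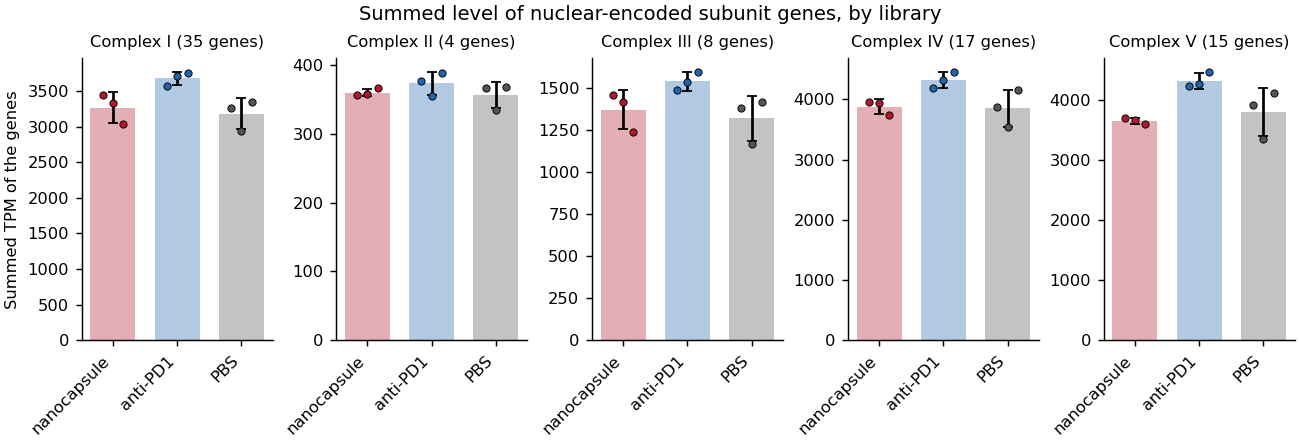
Summed TPM of the genes of each complex in each library (points), with the group mean (bars from 0) and SD (error bars, n = 3), for nanocapsule, anti-PD1 and PBS lungs. The 3 anti-PD1 lungs are the highest points for complexes I, III, IV and V, and PBS 2 is the lowest point in each panel. TPM are as deposited, without median-of-ratios scaling, under which this order may not hold.

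Limma on log2(TPM + 1), with Benjamini-Hochberg adjustment over all 13248 genes, called none of the 81 genes at an adjusted p under 0.05, where 0.106% of all genes were called. At an unadjusted p under 0.05 it placed 26 of 81 lower (32.1%, with 21% of all genes) and 0 higher (with 6.69% of all genes). With median-of-ratios scaling these counts were 6 lower and 7 higher. All 3 nanocapsule lungs lay below all 3 anti-PD1 lungs in 38 genes (46.9%, with 24.6% of all genes) and above them in 2 (with 8.73% of all genes), Cox7a1 and Ndufb9. By complex, 31 of 35 genes of complex I, 3 of 4 of complex II, 8 of 8 of complex III, 16 of 17 of complex IV and 14 of 15 of complex V had lower means in nanocapsule lungs, with median log2 differences of -0.21, -0.05, -0.18, -0.18 and -0.21. Under median-of-ratios scaling the medians of complexes II, III and IV turned positive. PBS lungs enter this comparison only through the shared estimate of the spread. Without PBS 2, 6 of the 81 genes (Atp5b, Atp5g2, Cox4i2, Cox7c, Ndufa5 and Ndufa12, whose level is uncertain) were called among 962 genes (7.26% of all), and without PBS 3, Cox7c alone was called among 188 genes (1.42%). The count of 26 was 13 without anti-PD1 3, 15 without nanocapsule 2 and 16 without nanocapsule 3.

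Among the 10 genes with the smallest p in this comparison, Cox7c (chr13:86044816-86046904, GRCm38), the gene of a small structural subunit of complex IV, had the tightest groups. Its level was 196, 197 and 189 TPM in nanocapsule lungs, 267, 272 and 272 TPM in anti-PD1 lungs and 202, 190 and 254 TPM in PBS lungs. All nanocapsule lungs were below all anti-PD1 lungs, and the PBS lungs spread over most of the gap. The difference was -0.48 on the log2 scale (SE 0.11, limma adjusted p = 0.0665). Ndufa5 (chr6:24518666-24528013), an accessory subunit gene of the matrix arm of complex I, stood at 46.0, 44.8 and 27.6 TPM in nanocapsule lungs, 59.8, 71.7 and 69.0 TPM in anti-PD1 lungs and 43.9, 31.6 and 36.6 TPM in PBS lungs. The anti-PD1 lungs were above every other lung, and nanocapsule against anti-PD1 gave -0.78 on the log2 scale (SE 0.19, limma adjusted p = 0.0736). Its 2 groups differed more than those of any other complex I gene in this comparison.

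Uqcrb, the gene of a ubiquinone-binding subunit of complex III, had 86.5, 68.4 and 89.1 TPM in nanocapsule lungs, against 101, 109 and 117 TPM in anti-PD1 lungs. The groups did not overlap (log2 difference -0.43, SE 0.12, limma adjusted p = 0.0873). Ndufv1, the flavin- and NADH-binding core gene of complex I, had 45.1, 37.9 and 43.9 TPM in nanocapsule lungs, against 54.6, 50.4 and 56.8 TPM in anti-PD1 lungs. Again no nanocapsule lung reached the anti-PD1 range (log2 difference -0.35, SE 0.10, limma adjusted p = 0.0914). Cox6c, a further structural subunit gene of complex IV, and Atp5j2, the f subunit gene of ATP synthase, had log2 differences of -0.31 each (limma adjusted p = 0.0955 and 0.102). With median-of-ratios scaling the log2 differences were smaller in size, at -0.28 for Cox7c, -0.23 for Uqcrb, -0.22 for Atp5b and Atp5g2, -0.15 for Ndufv1 and -0.11 for Cox6c and Atp5j2. Cox4i2, Ndufa4l2, Atp5g2 and Atp5b, the other genes of the 10, are described with their families below.

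**Figure D3:**
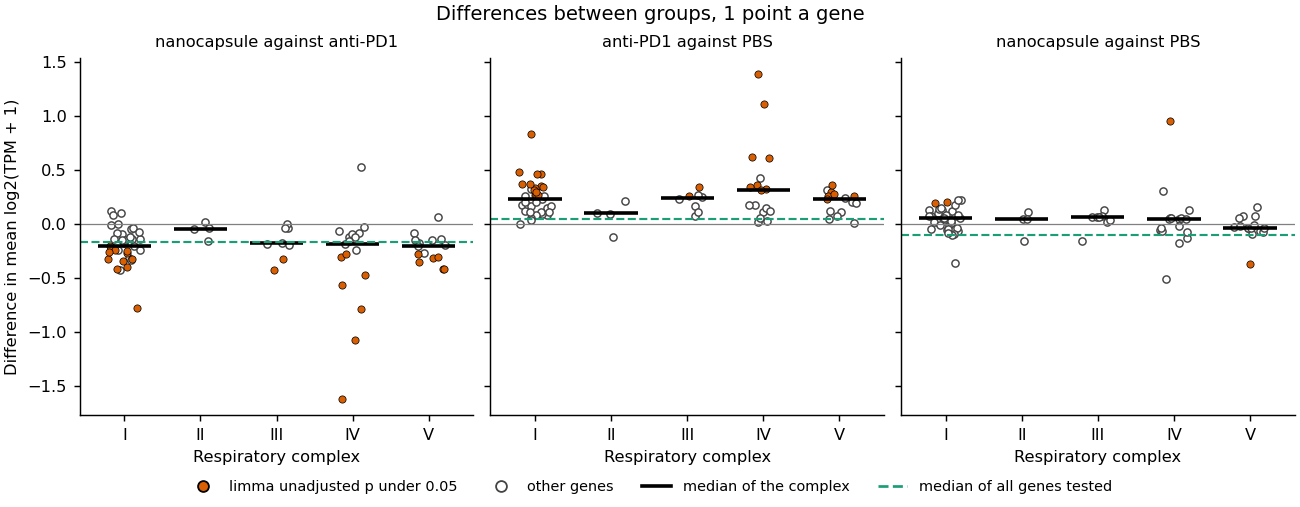
Difference in mean log2(TPM + 1) of each subunit gene (points) by complex in the 3 comparisons, with the median of each complex (black bars) and of all 13248 genes tested (dashed line). For nanocapsule against anti-PD1 the complex medians lie around the dashed line at -0.17, while for anti-PD1 against PBS all 5 lie above that at 0.04; under median-of-ratios scaling the medians of complexes II, III and IV turn positive in the first panel.

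Anti-PD1 lungs were then set against PBS lungs, the comparison of the free antibody with its vehicle. Here the oxidative phosphorylation genes stood higher by value than all genes did: 78 of 81 had higher means in anti-PD1 lungs (96.3%), against 56.9% of all genes tested. The median log2 difference was 0.21, a ratio of 1.16, beside 0.04 for all genes. With median-of-ratios scaling it was 0.14 with 68 of 81 genes higher, beside -0.02 for all genes, so the sign held. Without PBS 2 it was 0.13 with 70 genes higher, beside -0.01 for all genes. In bulk tissue, fewer cells of a type and less RNA per cell cannot be told apart.

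By summed TPM, complex IV had 4199, 4318 and 4465 in anti-PD1 lungs, against 3870, 3539 and 4151 in PBS lungs. Complex III had 1488, 1537 and 1599 in anti-PD1 lungs, against 1380, 1167 and 1415 in PBS lungs. By TPM as deposited, the anti-PD1 lungs were above the PBS lungs without overlap in both, by a narrow margin over PBS 1 or PBS 3 and a wide one over PBS 2. The sums were not rescaled, so the narrow margins may not hold under median-of-ratios scaling. Its factors were 0.984 to 1.129 in anti-PD1 and 0.935 to 1.076 in PBS lungs. Median log2 differences were 0.23 for complex I (34 of 35 genes higher), 0.09 for complex II (3 of 4), 0.23 for complex III (8 of 8), 0.31 for complex IV (17 of 17) and 0.22 for complex V (15 of 15). None of these medians changed sign under any of the 18 other settings.

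Limma called none of the 81 genes in this comparison, where 0.00755% of all genes were called. At an unadjusted p under 0.05 it placed 30 of 81 higher (37.0%, with 8.48% of all genes) and 0 lower (with 8.06% of all genes). With median-of-ratios scaling these counts were 15 higher and 1 lower, and with that scaling and without PBS 2 they were 7 higher and 0 lower. All 3 anti-PD1 lungs lay above all 3 PBS lungs in 39 genes (48.1%, with 12.1% of all genes) and below them in 0 (with 13.4% of all genes). The count of 30 was 14 without PBS 2 and 15 without anti-PD1 3. The 3 genes with lower means in anti-PD1 lungs were Sdha, Ndufa8 and Atp5s.

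Ndufa5 had the smallest p, with the levels given above (log2 difference 0.83, SE 0.19, limma adjusted p = 0.211). Cox6c had 413, 416 and 424 TPM in anti-PD1 lungs, against 331, 299 and 351 TPM in PBS lungs. The anti-PD1 lungs lay close together and above all PBS lungs (log2 difference 0.36, SE 0.09, limma adjusted p = 0.211). Ndufb5, an accessory subunit gene of the membrane arm of complex I, had 94.3, 92.0 and 108 TPM in anti-PD1 lungs, against 72.4, 59.8 and 82.3 TPM in PBS lungs. Its groups were apart too (log2 difference 0.46, SE 0.13, limma adjusted p = 0.211).

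Atp5l, the g subunit gene of ATP synthase, had 544, 571 and 534 TPM in anti-PD1 lungs, against 458, 439 and 449 TPM in PBS lungs. All 3 PBS lungs, PBS 2 included, lay close together and below the anti-PD1 lungs (log2 difference 0.29, SE 0.09, limma adjusted p = 0.213). Ndufs5, an accessory subunit gene of complex I on the intermembrane side, had 143, 152 and 145 TPM in anti-PD1 lungs, against 118, 130 and 118 TPM in PBS lungs. PBS 2 was the highest of the PBS lungs here (log2 difference 0.27, SE 0.09, limma adjusted p = 0.222). Ndufa9, an accessory subunit gene of complex I that binds a nucleotide, Cox5a and Cox7c, both of complex IV, had log2 differences of 0.34, 0.31 and 0.34 (limma adjusted p = 0.217, 0.218 and 0.217).

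Nanocapsule lungs were last set against PBS lungs. By value the genes were close to PBS: 47 of 81 had higher means in nanocapsule lungs, with a median log2 difference of 0.04 beside -0.11 for all genes. Only 28.8% of all genes had higher means there. With median-of-ratios scaling 73 of 81 were higher, with a median of 0.16 beside 0.00 for all genes. The sign of the median rested on single lungs, since it was -0.06 without PBS 2 and -0.01 without nanocapsule 1, while it was 0.02 without nanocapsule 2, 0.06 without PBS 1 and 0.09 without PBS 3. Median log2 differences were 0.055 for complex I, 0.05 for complex II, 0.06 for complex III, 0.04 for complex IV and -0.04 for complex V, where 11 of 15 genes had lower means. Without PBS 2 those of complexes I to IV turned negative, as did that of complex IV without nanocapsule 1. That of complex V turned positive under median-of-ratios scaling and without PBS 3.

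Limma called none of the 81 genes here either, where 0.00755% of all genes were called. At an unadjusted p under 0.05 it placed 3 higher (3.70%, with 1.22% of all genes), which were Cox7a1, Ndufb9 and Ndufb7, and 1 lower (1.23%, with 8.92% of all genes), which was Atp5b. With median-of-ratios scaling 12 were placed higher and 1 lower. Without PBS 2 the counts were 2 higher and 5 lower, without nanocapsule 3 they were 5 higher and 2 lower, and with any other lung left out they were 1 to 3 higher and 0 or 1 lower. All 3 nanocapsule lungs lay above all 3 PBS lungs in these 3 genes and in Sdhb (4.94%, with 2.4% of all genes), and below them in Sdha (1.23%, with 11.9% of all genes). Ndufb9, an accessory subunit gene of the membrane arm of complex I, had 165, 164 and 163 TPM in nanocapsule lungs, 149, 159 and 159 TPM in anti-PD1 lungs and 148, 141 and 140 TPM in PBS lungs. It was highest in nanocapsule lungs, with no overlap with either group (log2 difference 0.20 against PBS, SE 0.07, limma adjusted p = 0.429). Ndufb7, a further gene of that arm, had 189, 198 and 174 TPM in nanocapsule lungs, against 167, 163 and 160 TPM in PBS lungs. The lowest nanocapsule lung stood above the highest PBS lung (log2 difference 0.19, SE 0.08, limma adjusted p = 0.459).

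Of the other genes among the 10 with the smallest p against PBS, Ndufv2, a core gene of complex I that holds an iron-sulphur cluster, had 60.2, 61.7 and 56.2 TPM in nanocapsule lungs, against 52.8, 46.2 and 59.7 TPM in PBS lungs. PBS 3 lay inside the nanocapsule range (log2 difference 0.17, limma adjusted p = 0.590, and 0.077 without PBS 2). Ndufc1, an accessory gene of the membrane arm, had 28.6, 27.8 and 31.5 TPM in nanocapsule lungs, against 34.96, 29.96 and 52.7 TPM in PBS lungs. Its PBS lungs were spread widely, with PBS 3 far above the others (log2 difference -0.37, limma adjusted p = 0.594, and -0.14 without PBS 3). Ndufa11, the complex I gene with the lowest level, which is uncertain, had a log2 difference of 0.22 (limma adjusted p = 0.611). This difference was 0.095 without PBS 2 and 0.34 without PBS 3.

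Within complex I, the 7 core genes had median log2 differences of -0.14 for nanocapsule against anti-PD1 and 0.26 for anti-PD1 against PBS, and the 28 accessory genes had medians of -0.21 and 0.21, beside -0.17 and 0.04 for all genes. The difference between core and accessory genes was not tested. Among the core genes, Ndufs1 had 25.6, 24.2 and 29.96 TPM in nanocapsule lungs, 30.5, 26.8 and 29.5 TPM in anti-PD1 lungs, and 25.9, 28.4 and 30.4 TPM in PBS lungs. Its groups overlapped in all comparisons.

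In complex III, the Rieske iron-sulphur protein gene Uqcrfs1 had 81.3, 81.9 and 89.7 TPM in nanocapsule lungs, 86.7, 80.7 and 93.5 TPM in anti-PD1 lungs, and 86.4, 71.6 and 85.2 TPM in PBS lungs, with overlap between all groups. The genes with the highest levels were Uqcrh and Uqcrq, a small subunit gene. Uqcrh had 355, 370 and 281 TPM in nanocapsule lungs, 387, 376 and 379 TPM in anti-PD1 lungs, and 320, 290 and 348 TPM in PBS lungs. Nanocapsule 3 was the lowest lung for Uqcrh, and the anti-PD1 lungs were above all others. Uqcrq had 305, 298 and 256 TPM in nanocapsule lungs, 257, 307 and 321 TPM in anti-PD1 lungs, and 272, 251 and 264 TPM in PBS lungs, and its groups overlapped.

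In complex II, none of the 4 genes had an unadjusted p under 0.05 in any comparison. Of all genes, 21% were lower and 6.69% higher at that threshold for nanocapsule against anti-PD1. These shares were 8.06% and 8.48% for anti-PD1 against PBS, and 8.92% and 1.22% for nanocapsule against PBS. With only 4 genes this count says little about the complex. Sdha, the flavoprotein that oxidises succinate, had 74.8, 73.2 and 84.4 TPM in nanocapsule lungs, 82.3, 72.3 and 84.8 TPM in anti-PD1 lungs and 84.4, 84.7 and 91.0 TPM in PBS lungs. It alone of the 81 genes had its highest mean in PBS lungs, and its nanocapsule and PBS values nearly met (log2 difference -0.16, SE 0.09, limma adjusted p = 0.568). With median-of-ratios scaling this difference was -0.041, and -0.0014 with that scaling and without PBS 2. Sdhb, the iron-sulphur subunit gene, had 111, 115 and 114 TPM in nanocapsule lungs, 120, 102 and 116 TPM in anti-PD1 lungs and 106, 101 and 108 TPM in PBS lungs. The membrane anchor genes Sdhc and Sdhd averaged 68.2 ± 5.49 and 101 ± 5.21 TPM in nanocapsule lungs, 76.7 ± 7.64 and 104 ± 1.71 TPM in anti-PD1 lungs and 66.3 ± 9.04 and 97.4 ± 5.28 TPM in PBS lungs (SD, n = 3 each). Whether complex II differs from the other complexes was not tested.

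In complex V, Atp5b (chr10:128083273-128090391, GRCm38) was among the 10 genes with the smallest p in both comparisons of the nanocapsule lungs. It had 547, 498 and 643 TPM in nanocapsule lungs, 728, 745 and 767 TPM in anti-PD1 lungs and 765, 613 and 806 TPM in PBS lungs. Its nanocapsule lungs were below all anti-PD1 lungs and overlapped PBS 2 only. The log2 difference was -0.42 for nanocapsule against anti-PD1 (SE 0.13, limma adjusted p = 0.0955) and -0.37 for nanocapsule against PBS (SE 0.13, limma adjusted p = 0.408). Atp5a1, the alpha subunit gene with which the beta subunit alternates in the F1 head, had 192, 175 and 212 TPM in nanocapsule lungs, 228, 200 and 238 TPM in anti-PD1 lungs and 217, 175 and 228 TPM in PBS lungs. These overlapped between all groups. Of the summed TPM of the 5 F1 genes, Atp5b made up 32.3% ± 3.35 in nanocapsule lungs, 36.1% ± 0.676 in anti-PD1 lungs and 38.3% ± 0.760 in PBS lungs (SD, n = 3 each).

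The c-ring, which turns as protons pass, is encoded by Atp5g1, Atp5g2 and Atp5g3, whose mature proteins are the same. Summed over these, TPM were 516, 490 and 490 in nanocapsule lungs, 621, 613 and 703 in anti-PD1 lungs and 560, 427 and 580 in PBS lungs. The anti-PD1 lungs were above every other lung. Atp5g2 alone had 221, 199 and 198 TPM in nanocapsule lungs, against 267, 272 and 288 TPM in anti-PD1 lungs (log2 difference -0.42, SE 0.12, limma adjusted p = 0.0896). Their shares of the sum were similar between groups, with Atp5g2 at 41.2% ± 1.41 in nanocapsule lungs, 42.8% ± 1.67 in anti-PD1 lungs and 41.6% ± 0.463 in PBS lungs (SD, n = 3 each). Atp5g1 was at 16.8% ± 0.557, 16.7% ± 1.03 and 16.7% ± 1.28 in the same groups.

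**Figure D4:**
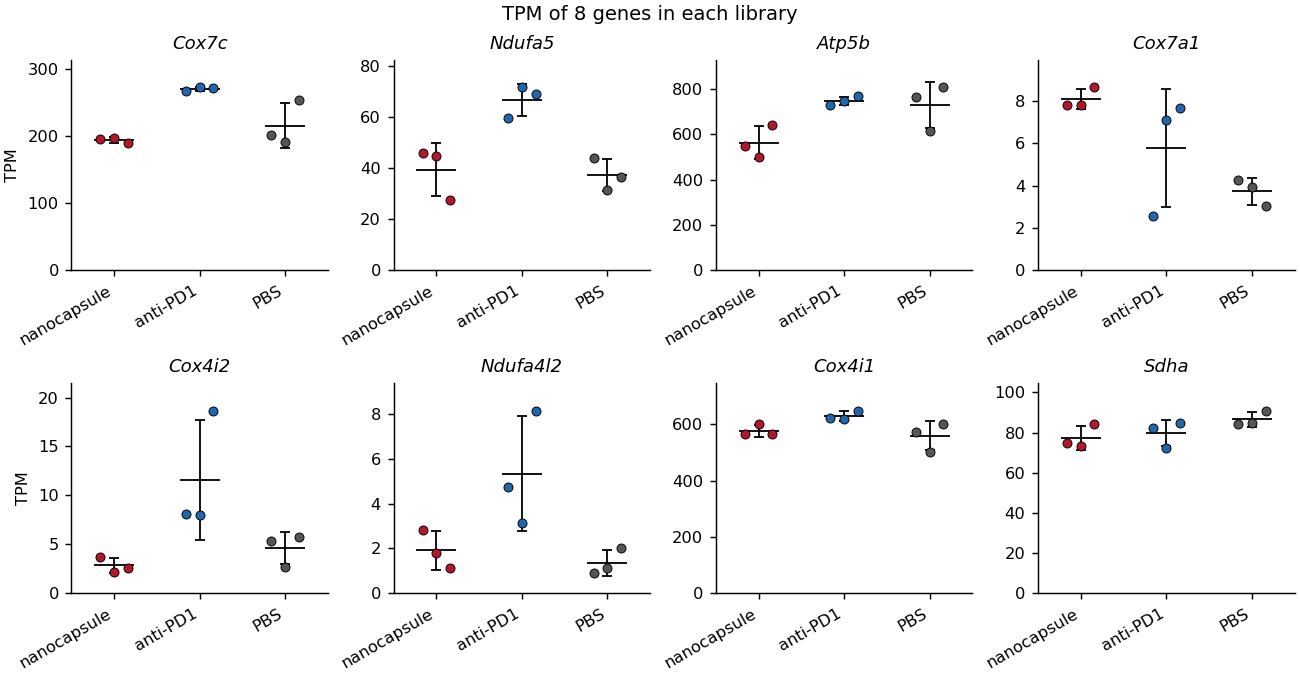
TPM of 8 genes in each library (points), with group mean and SD (bars, n = 3), on axes that start at 0. Cox7c, Ndufa5, Cox4i2 and Ndufa4l2 are highest in anti-PD1 lungs, Cox7a1 is highest in nanocapsule lungs, and Sdha has its highest mean in PBS lungs.

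Complex IV includes subunits with tissue-type versions, and 5 of the 9 genes that varied by 20% or more were of this kind. Cox4i2 (chr2:152754173-152765037), the version of subunit 4 found in lung and in oxygen-sensing cells, had 3.74, 2.19 and 2.62 TPM in nanocapsule lungs, 8.06, 8.03 and 18.7 TPM in anti-PD1 lungs and 5.32, 2.71 and 5.79 TPM in PBS lungs. Every anti-PD1 lung was above every other lung, and anti-PD1 3 was far above the rest. The log2 difference was -1.62 for nanocapsule against anti-PD1 (SE 0.33, limma adjusted p = 0.0575), 1.11 for anti-PD1 against PBS (SE 0.33, limma adjusted p = 0.213, and 0.74 without anti-PD1 3) and -0.51 for nanocapsule against PBS (SE 0.33, limma adjusted p = 0.609). Cox4i1, its common version, had 566, 601 and 564 TPM in nanocapsule lungs, 624, 617 and 648 TPM in anti-PD1 lungs and 574, 502 and 601 TPM in PBS lungs. Of the sum of both, Cox4i2 made up 0.494% ± 0.149 in nanocapsule lungs, 1.79% ± 0.877 in anti-PD1 lungs and 0.803% ± 0.231 in PBS lungs (SD, n = 3 each).

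Ndufa4l2 (chr10:127514967-127517154), a hypoxia-induced relative of the complex IV subunit gene Ndufa4, had 2.83, 1.82 and 1.12 TPM in nanocapsule lungs, 4.73, 3.14 and 8.14 TPM in anti-PD1 lungs and 0.914, 1.13 and 2.001 TPM in PBS lungs. The anti-PD1 lungs were again above all others, with anti-PD1 3 the highest. Its log2 difference was -1.08 for nanocapsule against anti-PD1 (SE 0.32, limma adjusted p = 0.0914) and 1.38 for anti-PD1 against PBS (SE 0.32, limma adjusted p = 0.211). Ndufa4 itself averaged 247 ± 18.02 TPM in nanocapsule lungs, 300 ± 17.0 TPM in anti-PD1 lungs and 241 ± 34.95 TPM in PBS lungs (SD, n = 3 each). Markers of vascular smooth muscle and pericytes, cells in which both Cox4i2 and Ndufa4l2 are known to be expressed, are set beside these genes. Endothelial markers differed more, with median log2 differences of -1.37 for nanocapsule against anti-PD1 and 1.39 for anti-PD1 against PBS. For the smooth muscle and pericyte markers these medians were -0.80 and 0.71. Of 10 such markers 8 were tested, and their summed TPM ran from 19.0 to 21.98 in nanocapsule lungs, 31.6 to 46.0 in anti-PD1 lungs and 19.2 to 27.1 in PBS lungs, with none at 0 in all libraries. Of these 8, 7 had lower means in the nanocapsule than in anti-PD1 lungs, as did 9375 of all 13248 genes tested. In anti-PD1 against PBS lungs 7 had higher means, as did 7533 of all genes. Acta2 was the exception in both. Notch3 reached 1 TPM in the 3 anti-PD1 lungs and otherwise only in PBS 3, so it met the minimum through the group where it was highest. The part of these markers in the result was not tested.

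Cox7a1 (chr7:30184144-30186078), the heart and skeletal muscle version of subunit 7a, was ordered otherwise. It had 7.80, 7.81 and 8.63 TPM in nanocapsule lungs, 2.58, 7.07 and 7.68 TPM in anti-PD1 lungs and 4.26, 3.91 and 3.02 TPM in PBS lungs. The nanocapsule lungs were above all others, and the anti-PD1 lungs were split, with anti-PD1 1 the lowest of all 9. The log2 difference for nanocapsule against PBS was 0.95 (SE 0.29, limma adjusted p = 0.365). Summed TPM of 8 tested cardiac and striated muscle markers, of 16 listed, were 30.9, 8.57 and 28.0 in nanocapsule lungs, 20.9, 19.9 and 34.7 in anti-PD1 lungs and 9.94, 7.59 and 18.3 in PBS lungs. Of these 8, Myh6, Actc1 and Tnnt2 reached 1 TPM in no PBS lung and met the minimum only through treated lungs. The sums thus favour the treated groups in part by the filter, and they leave out the markers under the minimum. The part of the muscle markers in the result was not tested. The common version Cox7a2 averaged 105 ± 3.63 TPM in nanocapsule lungs, 117 ± 12.3 TPM in anti-PD1 lungs and 108 ± 14.4 TPM in PBS lungs, and Cox7a2l, a related gene whose protein joins complexes III and IV, 258 ± 5.84, 273 ± 9.92 and 269 ± 27.2 TPM in the same groups (SD, n = 3 each).

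Cox6a2, the heart and skeletal muscle version of subunit 6a, averaged 2.76 ± 1.04 TPM in nanocapsule lungs, 5.41 ± 1.45 TPM in anti-PD1 lungs and 3.19 ± 0.885 TPM in PBS lungs, beside 684 ± 47.4, 718 ± 19.4 and 666 ± 57.4 TPM for the common Cox6a1 (SD, n = 3 each). Cox6b2, known as a testis version of subunit 6b, averaged 26.9 ± 2.90 TPM in nanocapsule lungs, 40.9 ± 8.97 TPM in anti-PD1 lungs and 26.8 ± 8.71 TPM in PBS lungs, beside 415 ± 9.98, 445 ± 17.6 and 402 ± 14.7 TPM for Cox6b1 (SD, n = 3 each). The share of each tissue-type gene in the sum with its common partner was compared between groups in 15 two-sided exact permutation tests. The smallest p was 0.1, which is the lowest that 3 against 3 can give, and 0.214 after Benjamini-Hochberg adjustment over the 15. Cox8a, the common version of subunit 8, averaged 628 ± 26.7 TPM in nanocapsule lungs, 642 ± 24.6 TPM in anti-PD1 lungs and 636 ± 38.8 TPM in PBS lungs (SD, n = 3 each).

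Across the 81 genes, the mean was highest in anti-PD1 lungs for 74, in nanocapsule lungs for 6 and in PBS lungs for 1. It was lowest in PBS lungs for 45 genes, in nanocapsule lungs for 35 and in anti-PD1 lungs for 1. By library, anti-PD1 3 was the highest of the 9 for 40 genes and PBS 2 the lowest for 49. After median-of-ratios scaling nanocapsule 2 was the highest for 36 genes and PBS 2 the lowest for 33. PBS 2 is the PBS lung with the largest share of S100a8 and S100a9, and the part of that share in the result was not tested. Of the 10 neutrophil markers, 10 had higher means in the nanocapsule than in anti-PD1 lungs, as did 3873 of all 13248 genes tested. In anti-PD1 against PBS lungs 10 had lower means, as did 5715 of all genes. Where limma called 0.106% and 0.00755% of all genes, it called 0 of these markers. Their summed TPM ran from 170106 to 193581 in nanocapsule lungs, 112201 to 129120 in anti-PD1 lungs and 133410 to 184500 in PBS lungs. Summed endothelial markers ran from 36.4 to 81.8 TPM in nanocapsule lungs, 112 to 196 TPM in anti-PD1 lungs and 37.4 to 84.2 TPM in PBS lungs. Alveolar macrophage markers ran from 1227 to 1966 TPM in nanocapsule lungs, 2146 to 2721 TPM in anti-PD1 lungs and 1377 to 2114 TPM in PBS lungs. For both lists the anti-PD1 lungs were thus above all others by TPM as deposited. B cell markers ran from 158 to 219 TPM in nanocapsule lungs, 278 to 455 TPM in anti-PD1 lungs and 268 to 487 TPM in PBS lungs. Summed means in nanocapsule, anti-PD1 and PBS lungs were 2118, 2542 and 1020 TPM for alveolar type 2 markers and 11892, 17404 and 7161 TPM for erythroid markers. Anti-PD1 and PBS lungs overlapped in the erythroid list, and nanocapsule lungs overlapped both groups in both lists. Nanocapsule 1 was the highest lung for the alveolar type 2 list, at 4203 TPM. Of these 5 markers, 4 had higher means and 1 a lower mean in anti-PD1 than in PBS lungs. The part of any of these lists in the differences of the oxidative phosphorylation genes was not tested.

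**Figure D5:**
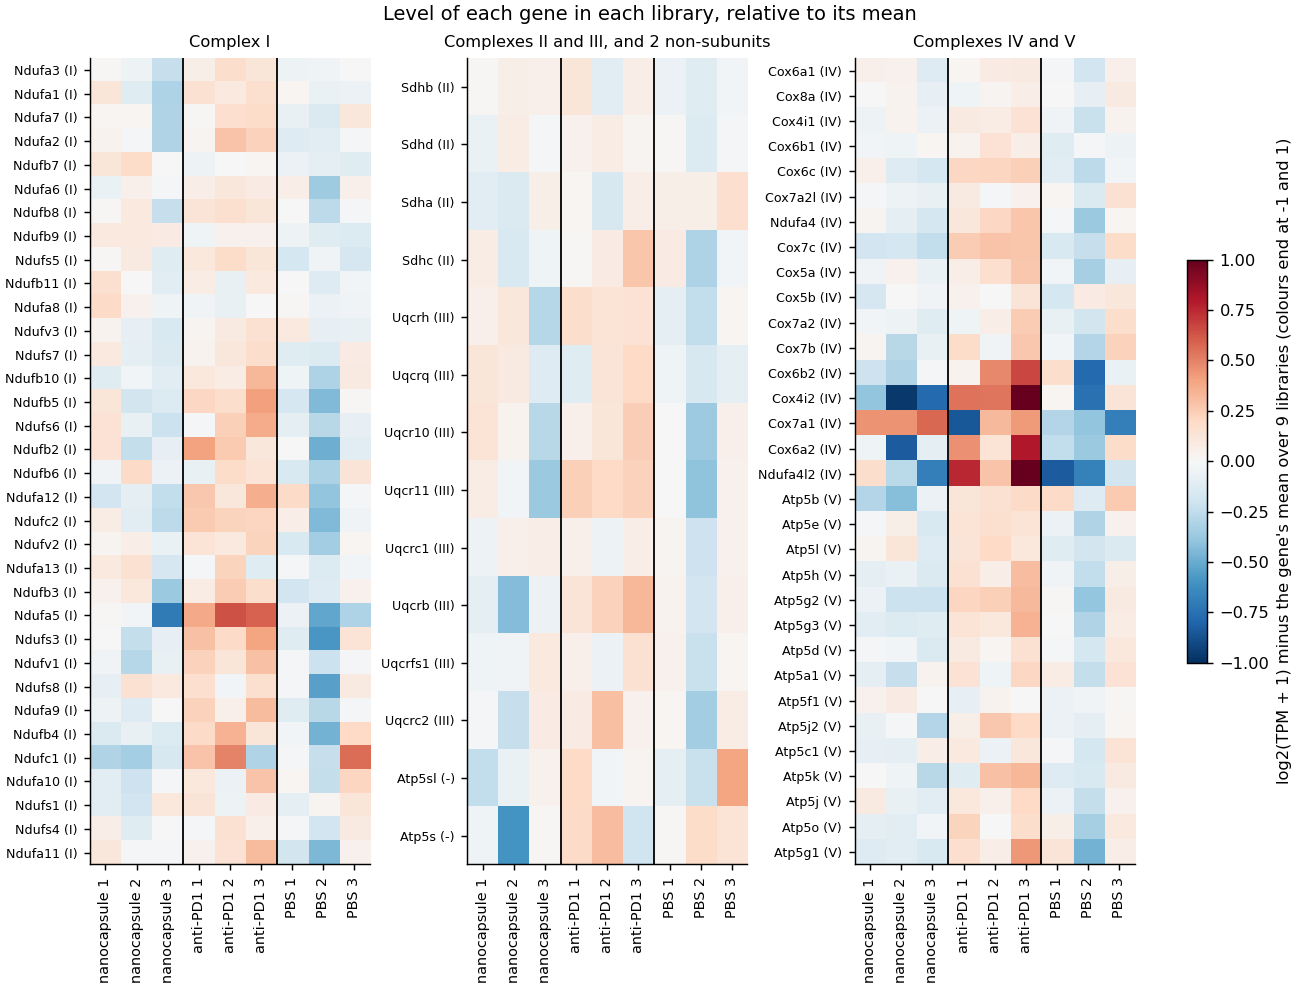
Log2(TPM + 1) of each gene minus its mean over the 9 libraries, by library (columns, nanocapsule, anti-PD1, PBS) and gene (rows, with complex in brackets), with 1 complex I gene not drawn. Most genes are above their mean in the 3 anti-PD1 lungs and below it in PBS 2, while Cox7a1 is above its mean in the 3 nanocapsule lungs.

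The 13 protein-coding genes of the mitochondrial genome, which supply the remaining subunits, had median log2 differences of -1.21 for nanocapsule against anti-PD1, 0.70 for anti-PD1 against PBS and -0.38 for nanocapsule against PBS, with none called. They summed to 30465, 21019 and 20507 TPM in nanocapsule lungs, 47141, 54822 and 52262 TPM in anti-PD1 lungs and 40762, 21353 and 36680 TPM in PBS lungs. Divided by the sum of the 81 nuclear genes, this gave 2.35, 1.65 and 1.71 in nanocapsule lungs, 3.39, 3.86 and 3.55 in anti-PD1 lungs and 3.18, 1.88 and 2.73 in PBS lungs. The anti-PD1 lungs were above all others, and PBS 2 stood with the nanocapsule lungs. The difference between nuclear and mitochondrial genes was not tested.

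Other genes of the pathway were described by lists, none of which held a called gene. Their counts stand beside those of all 13248 genes, of which 9375 had lower means in nanocapsule than in anti-PD1 lungs (median -0.17), and 7533 had higher means in anti-PD1 than in PBS lungs (median 0.04). Of 46 tested assembly factors of the complexes (49 listed), 37 had lower means in the nanocapsule than in anti-PD1 lungs and 36 had higher means in the anti-PD1 than in PBS lungs (medians -0.19 and 0.13). Their smallest p in both comparisons was that of Ndufaf2, an assembly factor of complex I, with log2 differences of -0.83 (SE 0.18, limma adjusted p = 0.0608) and 0.72 (SE 0.18, limma adjusted p = 0.211). Of 77 genes of the mitochondrial ribosome, which translates the mitochondrial mRNAs, 73 had lower means in the first comparison (median -0.26) and 69 higher means in the second (median 0.21). Of 16 tested genes of electron carriers (18 listed), 13 were lower by value in the first and 14 higher in the second (medians -0.22 and 0.17), with the smallest p in both for Ndufab1, the mitochondrial acyl carrier protein, at log2 differences of -0.62 and 0.53 (SE 0.14 each, limma adjusted p = 0.0674 and 0.211).

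Of 18 genes of the citric acid cycle and pyruvate dehydrogenase, 15 had lower means in the nanocapsule than in anti-PD1 lungs (median -0.18). The smallest p was that of Dlat, a pyruvate dehydrogenase subunit gene, at -0.70 (SE 0.12, limma adjusted p = 0.0519), while Mdh2, the mitochondrial malate dehydrogenase gene, was at 0.49 (SE 0.11, limma adjusted p = 0.0661). In anti-PD1 against PBS 14 of the 18 had higher means (median 0.10), and Mdh2 had the smallest p with -0.30 (SE 0.11, limma adjusted p = 0.240). All 8 genes of ATP and phosphate carriers and membrane proteins had lower means in the first comparison and higher means in the second (medians -0.19 and 0.16). Regulators of these genes, among them Nrf1, Gabpa, Yy1 and Ppargc1b, had medians of -0.05 and 0.01 over 13 tested genes of 15 listed, beside -0.17 and 0.04 for all genes, with 8 lower in the first comparison and 7 higher in the second. Against PBS, 11 of these 13 regulators, 33 of 46 assembly factors and 14 of 18 citric acid cycle genes had lower means in nanocapsule lungs, with medians of -0.12, -0.09 and -0.09 beside -0.11 for all genes.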

How the data were processed

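Gene expression was measured by RNA sequencing of poly(A) RNA from 9 lungs, 3 in each of 3 groups, grouped by their titles. The deposited values are gene-level TPM, which the authors scaled to 1000000 in each library. Per the submitters' processing notes, which give no role or version, the tools and builds include DESeq2 and GRCm38, and the table's own name points to salmon. TPM are not counts, so depth is unknown, no count test was applied and precision rests on the 3 lungs per group. All columns were used.

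Members were chosen by symbol, and members and gene lists were chosen with earlier results of these data known. The fit took the 13248 genes that reached 1 TPM in 3 or more libraries. On log2(TPM + 1), limma 3.58.1 (R 4.3.3) was run with its trend option, and the 3 groups shared 1 spread with 6 residual degrees of freedom. P-values, two-sided, went through Benjamini-Hochberg adjustment over all genes of a comparison, and calls needed an adjusted p under 0.05. A log2 difference is on the log2(TPM + 1) scale, which understates changes of low genes. The fit was tested on simulated data with larger changes than the median differences given here, so that test does not bear on them.

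Genes were named by a rule: called genes and those with the smallest p up to 10 per comparison, complex II, the 2 highest genes of the other complexes, tissue-type versions, catalytic subunits, and up to 3 genes of other lists. A gene that the rule names is not reported here. Genes named only beside a count were chosen after their values were seen. Positions and transcripts came from GENCODE M21 on GRCm38, copies were found with blastn 2.17.0+, and promoters were those of RefSeq. Alternatives were another pseudocount (0.1), no filter, a filter at a mean of 5 TPM, median-of-ratios scaling, TPM without dominant transcripts, no trend, 2 groups only, a replicate block and each lung left out. One more, median-of-ratios scaling without PBS 2, was chosen after seeing the data.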

Additional observations from a re-analysis of the deposited data

How the results depend on the processing

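Over all alternatives, limma called 0 of the 81 genes for anti-PD1 against PBS and for nanocapsule against PBS. For nanocapsule against anti-PD1 it called 1 gene with a filter at a mean of 5 TPM (Cox4i2), with 2.18% of all genes called. With only the 2 groups in the fit it called 3, with 3.59% of all genes. When a lung was left out it called 0 to 6 (6 without PBS 2, with 7.26% of all genes, and 1 without PBS 3, with 1.42%). With median-of-ratios scaling and without PBS 2, an alternative chosen after seeing the data, it called 1 (Cox4i2), with 9.96% of all genes. The median log2 difference of the 81 genes became 0.014 for nanocapsule against anti-PD1, 0.14 for anti-PD1 against PBS and 0.16 for nanocapsule against PBS with median-of-ratios scaling, and 0.014, 0.11 and 0.12 with that scaling and without PBS 2. With 1 lung left out it ran from -0.22 to -0.14, from 0.13 to 0.27 and from -0.062 to 0.087. The cause of these shifts was not tested. None of the 30 named log2 differences reversed, and for nanocapsule against anti-PD1 16 of their recomputed values gained a call while 163 did not.

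Correlations of same-numbered lungs' deviations from their group means ran from -0.18 to 0.28, and those of differently numbered lungs from -0.258 to 0.225. These ranges overlap and cannot decide whether replicate numbers pair the lungs. With the replicate block 6 of the 81 genes were called for nanocapsule against anti-PD1, among 1095 genes (8.27% of all), and 0 in the other comparisons.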
